A study of Mus musculus with 4 samples.

Results

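The genes described here are 49 genes of the DNA replication machinery, measured in 4 mouse liver tumours by poly-A RNA sequencing. They were chosen by name: the MCM helicase, the origin recognition complex, its loading and firing partners, the replicative polymerases, the sliding clamp and its loader, the single-strand binding protein, the enzymes that join Okazaki fragments, 4 genes of nucleotide supply, and the transcription factors E2f1 and E2f2. All 49 were present among the 24063 gene symbols of the files, and all 49 passed the filter of a mean of at least 1 CPM (counts per 1000000 counts, after scaling), which 13129 genes passed. The tumours form 1 group: C57BL/6 mice that received MYC and PMEPA1, labelled as overexpressed, by hydrodynamic tail vein injection, in which plasmid DNA injected rapidly in a large volume is taken up mostly by hepatocytes. No further treatment was given. The series' title and design text call the tumours hepatocellular carcinomas. A passage number of 8 to 10 is stated as well, as for cultured cells. The labels do not give the promoter, the species of the delivered sequences or the age of the mice, and they do not say whether tumours 1, 5, 9 and 10 came from separate animals, so the p-values below measure the spread between these samples only, which may be technical. With no control group, no level below says what MYC or PMEPA1 did.

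DNA replication begins when the origin recognition complex, with CDC6 and CDT1, loads the MCM helicase onto DNA as an inactive double ring. The kinase CDC7, bound to its activator DBF4, and cyclin-dependent kinases then recruit CDC45 and the GINS complex, which switch the helicase on, and geminin blocks reloading by binding CDT1. Polymerase alpha with primase starts each strand, polymerases epsilon and delta extend it on the PCNA ring that the RFC complex loads, RPA coats single-stranded DNA, and FEN1 and LIG1 process and join the fragments of the lagging strand. Many of these genes are transcribed at the border of G1 and S phase under E2F factors, whose activators include E2F1 and E2F2. Most hepatocytes of the adult liver are out of the cell cycle, and MYC is a known driver of cell cycle entry.

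Because many of these genes are transcribed under E2F factors, the promoters were searched for the E2F binding letters. RefSeq promoter sequence on GRCm38.p6 was matched for 41 of the 49 genes. It was not matched for Rfc2, Gins2, Gmnn, Pole, Prim2, Gins4, Mcm4 and Gins1. The letters TTTCCCGC, TTTGGCGC, TTTCGCGC or TTTGCCGC stood on either strand in the 250 bases before the start in 9 of 41 genes (22.0%), against 3.82% of 9784 expressed genes and 2.16% of all 27025 genes in the table. The 9 genes were Cdc6, Gins3, Mcm5, Mcm6, Mcm7, Orc1, Orc3, Pola1 and Rfc3. Windows around the matches that lie outside annotated exons are printed for 4 of them, with the matched letters in capitals:
Cdc6, chr11:98907983-98908050, plus strand: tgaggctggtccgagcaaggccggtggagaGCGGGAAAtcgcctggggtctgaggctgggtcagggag
Mcm5, chr8:75109326-75109397, plus strand: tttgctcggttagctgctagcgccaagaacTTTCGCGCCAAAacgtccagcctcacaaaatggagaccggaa
Mcm6, chr1:128359715-128359845, minus strand: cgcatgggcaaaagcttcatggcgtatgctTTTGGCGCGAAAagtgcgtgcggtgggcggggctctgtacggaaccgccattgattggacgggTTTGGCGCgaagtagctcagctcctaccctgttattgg
Pola1, chrX:93632256-93632323, minus strand: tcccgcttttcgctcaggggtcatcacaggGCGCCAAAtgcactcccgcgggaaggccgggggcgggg

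In Mcm5 the capitals hold matches on both strands that overlap, starting 153 and 149 bases before the RefSeq start. In Mcm6 an overlapping pair starts 110 and 106 bases before the start, and a further match lies 47 bases before it. Cdc6 and Pola1 each carry 1 match, 138 bases before the start in both, and GENCODE places an earlier start of Cdc6 upstream of the printed window. CCAAT boxes (CCAAT, either strand) stood in 24 of the 41 promoters (58.5%), against 40.3% of expressed genes. The E-box CACGTG, which MYC binds with its partner MAX, stood in 6 of 41 (14.6%), against 9.90%. The letters TTTGAA or TTCGAA, the CHR element of many mitotic genes, stood in 9 of 41 (22.0%), against 14.7%. A match is a description of the letters, not a bound site, and a promoter without one may hold it outside this window.

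All 49 genes were expressed in all 4 tumours, with no count of 0 and from 96 to 13380 reads per gene and tumour. Per kilobase of transcript, the scale on which levels are compared between genes, Pcna was the highest of them at 173 ± 42.4 CPM per kilobase and Gins3 the lowest at 1.68 ± 0.13 (SD, n = 4). The median of the 49 was 21.3 CPM per kilobase, against 9.65 over all expressed genes. The genes together took 0.364, 0.394, 0.324 and 0.238% of the gene counts of tumours 1, 5, 9 and 10, a share by total counts. Scaled by TMM, their summed levels were 3307, 3824, 2946 and 2969 CPM. By that scaling the sum of tumour 10 was close to that of tumour 9 and not the lowest. Tumour 5 was on the high side and tumour 10 on the low side for most of the machinery. By TMM (the scaling between libraries), 17 of the 49 genes lay above their 4-tumour mean in tumour 10, against 6725 of 13129 expressed genes. Pcna, Rpa1, Gins4 and Mcm6 were among the 17. By total counts 3 of the 49 lay above their mean there.

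**Figure D1:**
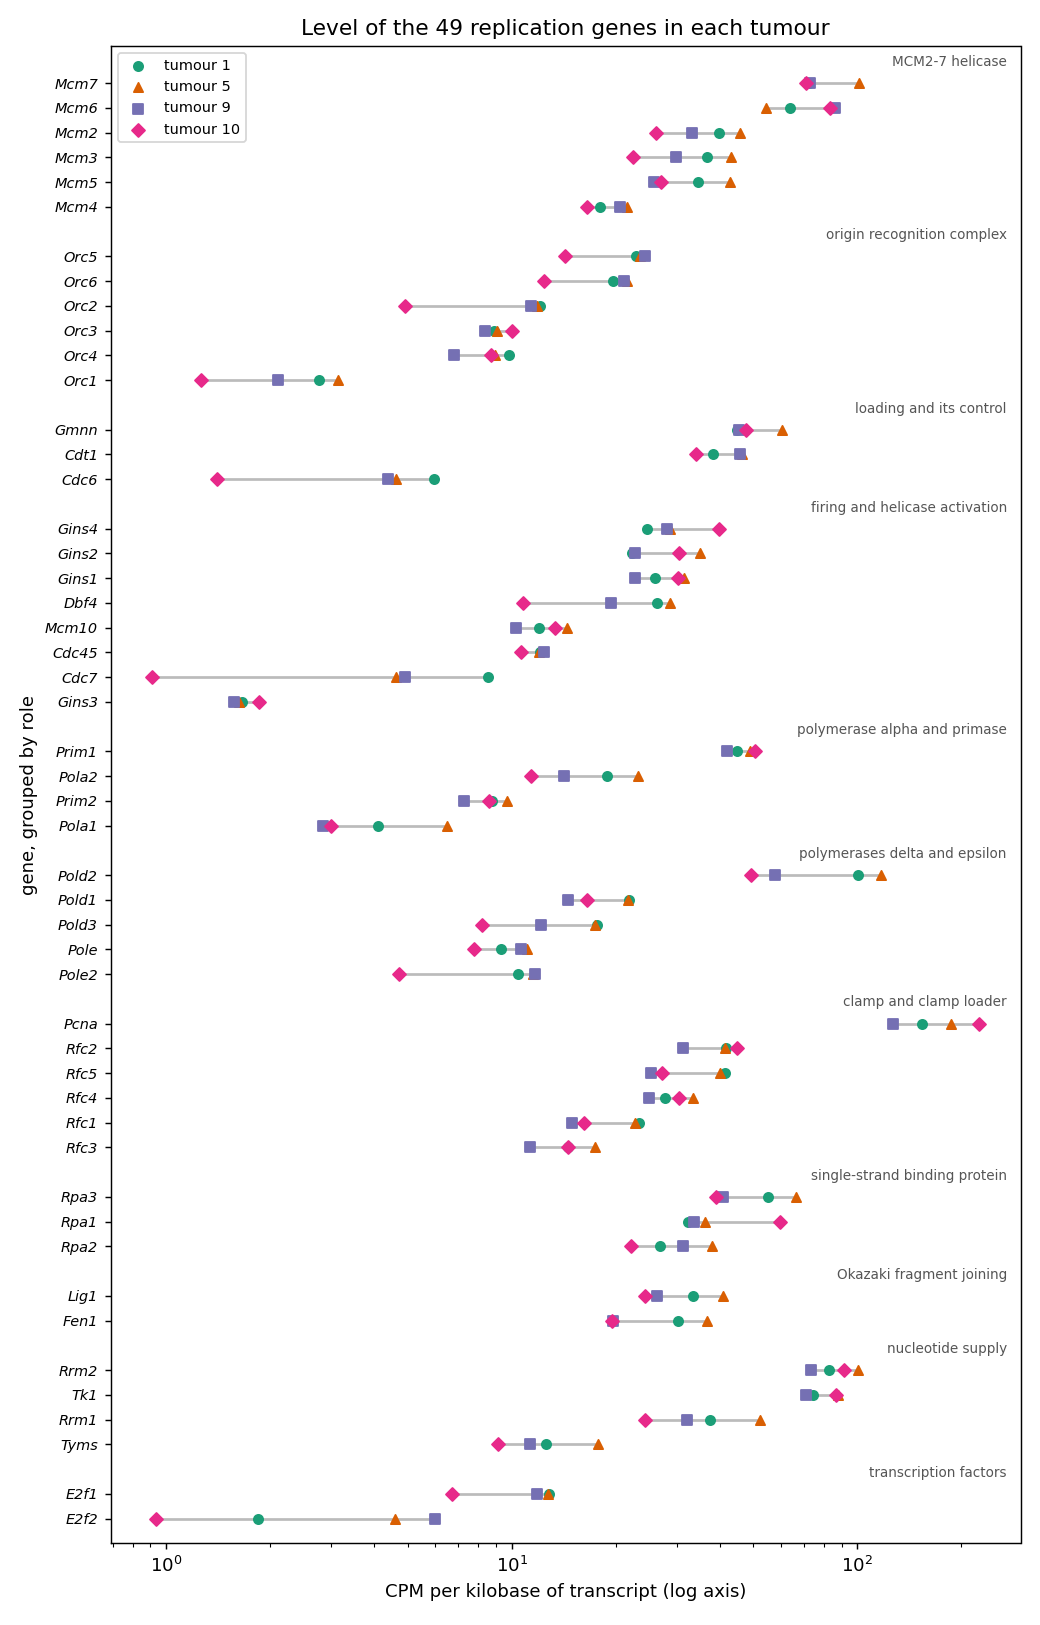
Level of each of the 49 genes in CPM per kilobase of transcript (log axis), grouped by role, with 1 point for each of the tumours 1, 5, 9 and 10. Pcna lies furthest to the right, and Cdc7 and E2f2 have the widest gaps between tumours, with tumour 10 lowest for both.

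The libraries held 51939623, 41547938, 48931408 and 41948878 gene counts in tumours 1, 5, 9 and 10. At these depths 3 counts correspond to 0.0524 to 0.0892 CPM, so every level here stands far above the counting floor. Such floors cover counting error only. Tumour 10 has a TMM scaling factor of 0.802, against 1.03 to 1.10 in the others, and with total counts in place of TMM the median gene shifts by 0.14, 0.04, 0.13 and -0.32 log2 units in tumours 1, 5, 9 and 10. The changes below are relative to TMM. Total counts give another order for more genes than those named below. Gins3, for example, was highest in tumour 10 by TMM and lowest there by total counts. In bulk tumours, fewer cells in S phase and less RNA per cell cannot be told apart.

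The MCM helicase, the ring that unwinds DNA at the fork, was among the more abundant groups. Mcm7 (GRCm38 chromosome 5, 138164583 to 138172422, minus strand) and Mcm6 (chromosome 1, 128331590 to 128359664, minus strand) led it at 79.4 ± 14.5 and 71.8 ± 15.3 CPM per kilobase (SD, n = 4). Their ranges overlapped and each was above the other in 2 of 4 tumours. Mcm2, Mcm3 and Mcm5 followed at 36.2 ± 8.4, 33.0 ± 8.8 and 32.5 ± 7.8 CPM per kilobase, with overlapping ranges among themselves and none with Mcm6. Mcm4 was the lowest at 19.2 ± 2.3, below Mcm5 in each tumour. The proteins form a ring with 1 copy of each, whereas the messages did not stand at equal levels.

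Across tumours, 5 of the 6 helicase genes were highest in tumour 5, against 21.2% of all expressed genes. Mcm2 had 134, 154, 112 and 88.2 CPM in tumours 1, 5, 9 and 10. Mcm3 had 106, 124, 86.2 and 64.8 CPM. Mcm5 had 118, 146, 88.5 and 92.6 CPM. These genes put tumours 5 and 1 above tumours 9 and 10, although Mcm5 is lowest in tumour 9 by TMM and in tumour 10 by total counts. Mcm4 varied little, with 64.7, 77.2, 73.7 and 59.4 CPM (SD of log2 CPM 0.17), and was highest in tumour 9 by total counts. Mcm7 had 174, 242, 175 and 169.8 CPM, so by TMM tumour 5 stood alone above 3 near-equal tumours. By total counts Mcm7 had 192, 250, 192 and 136 CPM, with tumour 10 below tumours 1 and 9. Reads of Mcm7 cannot be told apart from those of Cops6 and Ap4m1 on the opposite strand where these genes overlap it, since strand use in counting is not given in the sources used here.

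Mcm6 went the other way. It had 185, 158, 249 and 242 CPM in tumours 1, 5, 9 and 10, and was the 1 gene of the 49 that was lowest in tumour 5, by TMM and by total counts alike. Tumours 9 and 10 were both above tumours 1 and 5 by TMM, while by total counts tumour 10, at 194, lay below tumour 1, at 203. Per kilobase, Mcm6 was 0.877, 0.537, 1.17 and 1.18 times Mcm7 and 1.60, 1.19, 2.58 and 3.18 times Mcm2 in tumours 1, 5, 9 and 10, ratios that do not depend on the scaling between libraries. The ratio to Mcm2 was lowest in tumour 5 and highest in tumour 10. These ratios were chosen after the values were seen.

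The origin recognition complex marks the sites where the helicase is loaded. Orc5 and Orc6 were its most abundant messages at 21.2 ± 4.7 and 18.7 ± 4.3 CPM per kilobase, with overlapping ranges. Orc2, Orc3 and Orc4 followed at 10.0 ± 3.4, 9.09 ± 0.70 and 8.57 ± 1.26, all overlapping. Orc1, the ATPase subunit whose level is known to cycle in human cells, was the lowest at 2.32 ± 0.83 CPM per kilobase (SD, n = 4), below Orc4 in each tumour.

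Orc2 (chromosome 1, 58462771 to 58505109, minus strand) had 17.5 CPM in tumour 10, against 43.0, 42.0 and 40.4 CPM in tumours 1, 5 and 9. Tumour 10 lay apart, and the other 3 spanned less than 3 CPM. Orc5 showed the same outline, with 29.3 CPM in tumour 10 against 47.1, 48.2 and 50.1 CPM, and so did Orc6, with 20.5 against 32.5, 35.7 and 34.9 CPM. Orc1 had 3.81 CPM in tumour 10 against 8.32, 9.48 and 6.33 CPM in tumours 1, 5 and 9, from 128 reads in tumour 10. Orc3 and Orc4 did not have this low value. Orc3 was the steadiest subunit, with 56.0, 57.3, 52.8 and 63.4 CPM (SD of log2 CPM 0.11), highest in tumour 10 by TMM and lowest there by total counts. Orc4 had 40.05, 36.3, 27.8 and 35.5 CPM, lowest in tumour 9 by TMM and in tumour 10 by total counts. Orc2, Orc4 and Orc6 overlap a coding gene on the opposite strand.

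Among the loading factors, geminin (Gmnn) and Cdt1 had similar levels, 49.5 ± 7.4 and 41.1 ± 5.9 CPM per kilobase, with overlapping ranges. Cdc6 was far lower, at 4.09 ± 1.92 (SD, n = 4). Cdc6 (chromosome 11, 98907801 to 98923940, plus strand) also varied far more than its partners. It had 6.36 CPM in tumour 10, against 27.0, 21.0 and 19.8 CPM in tumours 1, 5 and 9, with 214 reads behind the low value. Cdt1 had 83.8, 101, 100.004 and 74.8 CPM in tumours 1, 5, 9 and 10. Gmnn had 43.7, 59.1, 44.4 and 46.4 CPM. The ratio of Cdt1 to its inhibitor Gmnn per kilobase was 0.855, 0.765, 1.005 and 0.718, highest in tumour 9 and lowest in tumour 10.

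Cdc7, the kinase that fires origins, had the largest spread of the 49 genes. Cdc7 (chromosome 5, 106964322 to 106984432, plus strand) had 2.85 CPM in tumour 10, against 26.8, 14.5 and 15.4 CPM in tumours 1, 5 and 9. Its highest level was 9.40 times its lowest. The 4 transcript rows of Cdc7 repeat reads of each other, so their 93 to 96 reads in tumour 10 are not separate pieces of evidence. Its activator Dbf4 was also lowest in tumour 10, with 26.2 CPM against 64.1, 69.9 and 47.3 CPM in tumours 1, 5 and 9, but over a smaller range. Dbf4 was thus 3.07, 6.18, 3.95 and 11.8 times Cdc7 per kilobase in tumours 1, 5, 9 and 10.

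The factors that complete the active helicase showed no such low value in tumour 10 by TMM. Cdc45 had 25.9, 25.8, 26.6 and 22.7 CPM and the smallest spread of all 49 genes (SD of log2 CPM 0.10). Mcm10, which helps the helicase start, had 41.9, 50.6, 35.9 and 46.7 CPM. Of the GINS subunits, Gins1 had 28.2, 34.2, 24.6 and 32.9 CPM and Gins2 had 23.1, 36.3, 23.5 and 31.7 CPM. Both put tumours 5 and 10 above tumours 1 and 9 by TMM, while by total counts tumour 10 is the lowest. Gins4 was highest in tumour 10 under both scalings, with 54.4 CPM there against 33.6, 39.2 and 38.3 CPM. Gins3 was low, with 3.98, 3.92, 3.78 and 4.49 CPM from 151 to 228 reads. Per kilobase it stood at 1.68 ± 0.13, against 27.6 to 30.3 for the other GINS subunits, although the proteins form a complex with 1 copy of each.

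Polymerase alpha and primase make the primer that starts each strand. The primase catalytic subunit Prim1 was the most abundant at 46.6 ± 3.9 CPM per kilobase, then Pola2 at 16.9 ± 5.2, Prim2 at 8.56 ± 0.99 and the catalytic subunit Pola1 at 4.11 ± 1.68 (SD, n = 4 each), and no neighbours in this order overlapped. Prim1 was steady, with 68.5, 74.97, 64.4 and 77.7 CPM in tumours 1, 5, 9 and 10, highest in tumour 10 by TMM and in tumour 5 by total counts. Prim2 had 17.3, 19.1, 14.4 and 16.9 CPM. Pola1 had 21.9, 34.6, 15.2 and 16.03 CPM, so tumour 5 stood above the rest. Pola2 had 45.7, 56.1, 34.4 and 27.5 CPM, with tumour 5 again highest.

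Polymerase delta copies mainly the lagging strand and polymerase epsilon the leading strand. Pold2, the subunit that holds polymerase delta together, led both enzymes at 81.1 ± 32.7 CPM per kilobase, against 18.7 ± 3.7 for the catalytic subunit Pold1 and 13.8 ± 4.5 for Pold3. Pold2 had 162, 188, 92.9 and 79.3 CPM in tumours 1, 5, 9 and 10, and Pold3 had 52.9, 52.3, 36.4 and 24.7 CPM. In both, tumours 1 and 5 lay above 9, and 9 above 10. Pold1 had 74.8, 74.5, 49.8 and 56.5 CPM, with tumours 1 and 5 close together above the others. Pole, the catalytic subunit of polymerase epsilon, had 66.2, 78.7, 75.9 and 55.5 CPM. Its partner Pole2 had 8.00 CPM in tumour 10, against 17.7, 19.5 and 19.7 CPM in tumours 1, 5 and 9. Pole2 also overlaps a predicted gene on the same strand.

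The sliding clamp PCNA and the loader that opens it are encoded by 6 of the genes. By TMM all 6 were lowest in tumour 9, against 25.5% of all expressed genes, as were 3 of the 4 polymerase alpha and primase genes. By total counts 2 of the 6, Pcna and Rfc2, were lowest in tumour 9, and the other 4 in tumour 10. All 4 polymerase alpha and primase genes were lowest in tumour 10 under that scaling. Of all expressed genes, 14.8% were lowest in tumour 9 and 53.3% in tumour 10 by total counts. Pcna (chromosome 2, 132249162 to 132253314, minus strand) had 194, 235, 159.7 and 283 CPM in tumours 1, 5, 9 and 10. It was thus highest in tumour 10 by TMM, and by total counts tumour 10 was close behind tumour 5, at 227 and 242. Rfc1, the large subunit of the loader, had 110.1, 107, 70.7 and 76.4 CPM, and Rfc5 had 71.7, 69.1, 43.6 and 47.2 CPM, both with tumours 1 and 5 well above 9 and 10. Rfc2 had 63.1, 63.0, 47.3 and 68.1 CPM. Rfc3 and Rfc4 varied less, with 13.8 to 21.1 and 30.4 to 40.6 CPM. Per kilobase the loader subunits ranged from 14.4 for Rfc3 to 39.8 for Rfc2, far below Pcna, and neighbours in that order overlapped except Rfc4 and Rfc1.

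The 3 subunits of the single-strand binding protein differed in direction. Rpa1, the large subunit, had 185 CPM in tumour 10, against 101, 112 and 105 CPM in tumours 1, 5 and 9, and was highest in tumour 10 under both scalings. Rpa2 had 39.3 CPM in tumour 10 against 47.9, 67.5 and 55.7 CPM, and Rpa3 had 24.9 CPM against 35.1, 42.4 and 26.04 CPM, both lowest in tumour 10. Per kilobase they stood at 50.4 ± 12.9 for Rpa3, 40.5 ± 12.8 for Rpa1 and 29.5 ± 6.7 for Rpa2 (SD, n = 4), all overlapping.

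Fen1, the nuclease that trims Okazaki fragments, had 66.7, 81.2, 43.3 and 43.0 CPM in tumours 1, 5, 9 and 10. Lig1, the ligase that joins them, had 107, 129.9, 83.4 and 77.3 CPM. Both were highest in tumour 5, then in tumour 1, with tumours 9 and 10 close together by TMM. Fen1 and Lig1 overlap coding genes on the opposite strand, as do Cdc45, Gins2, Rfc2, Rfc4, Rfc5 and Tk1.

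All 4 genes of nucleotide supply were highest in tumour 5, against 21.2% of all expressed genes. Rrm2, the small subunit of ribonucleotide reductase that limits its activity in S phase, had 180.5, 218, 159.5 and 199 CPM in tumours 1, 5, 9 and 10. The large subunit Rrm1 had 149.9, 208, 128 and 97.0 CPM. Rrm1 was therefore lowest in tumour 10, whereas Rrm2 was second highest there by TMM and lowest by total counts. The ratio of Rrm2 to Rrm1 per kilobase, free of that scaling, was 2.21, 1.92, 2.28 and 3.76, highest in tumour 10. It is not free of the trend with transcript length described below, since Rrm2 has 2180 bases and Rrm1 3997. With all genes of similar length subtracted, the deviations in tumour 10 were -0.01 for Rrm2 and -0.40 for Rrm1, against 0.08 and -0.53 before. Tk1, the thymidine salvage kinase of S phase, had 102, 120.0, 97.2 and 119 CPM, with tumours 5 and 10 close together by TMM. Tyms, which makes thymidylate, had 47.7, 67.2, 42.7 and 34.6 CPM, lowest in tumour 10. Per kilobase, Rrm2 and Tk1 stood at 86.8 ± 11.5 and 79.9 ± 8.5 with overlapping ranges, above Rrm1 at 36.5 ± 11.8 and Tyms at 12.7 ± 3.7 (SD, n = 4).

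The 2 transcription factors differed from each other. E2f1 had 18.3 CPM in tumour 10, against 35.0, 34.8 and 32.4 CPM in tumours 1, 5 and 9, which lay within 3 CPM of each other. E2f2 (chromosome 4, 136172394 to 136196057, plus strand) also had its lowest level in tumour 10, with 4.43 CPM there, but spread over the others too, with 8.74, 21.7 and 28.4 CPM in tumours 1, 5 and 9. E2f1 was 6.93, 2.77, 1.97 and 7.16 times E2f2 per kilobase in tumours 1, 5, 9 and 10. Tumours 1 and 10 were thus alike in this ratio, although E2f1 itself was high in tumour 1 and low in tumour 10. The 9 genes with E2F letters in the promoter had median deviations from their 4-tumour means of 0.02, 0.36, -0.10 and -0.15 log2 units in tumours 1, 5, 9 and 10, against 0.15, 0.31, -0.14 and -0.39 for the 32 genes searched without them. Cdc6, Mcm5, Mcm6 and Pola1, whose windows are printed above, were highest in tumours 1, 5, 9 and 5.

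Taken gene by gene, the spread between tumours was modest. The median SD of log2 CPM was 0.33 over the 49 genes, against 0.45 over all expressed genes and 0.40 over the 10334 expressed genes within the same range of mean CPM (4.04 to 218). Only Cdc7 (1.38) and E2f2 (1.23) had an SD of at least 1, 2 of 49, against 16.6% of all expressed genes and 12.8% of those in the same CPM range. Cdc6 came next at 0.92. Without tumour 10, none of the 49 reached 1. The smallest spreads were those of Cdc45, Gins3, Orc3 and Prim1, from 0.10 to 0.12.

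**Figure D2:**
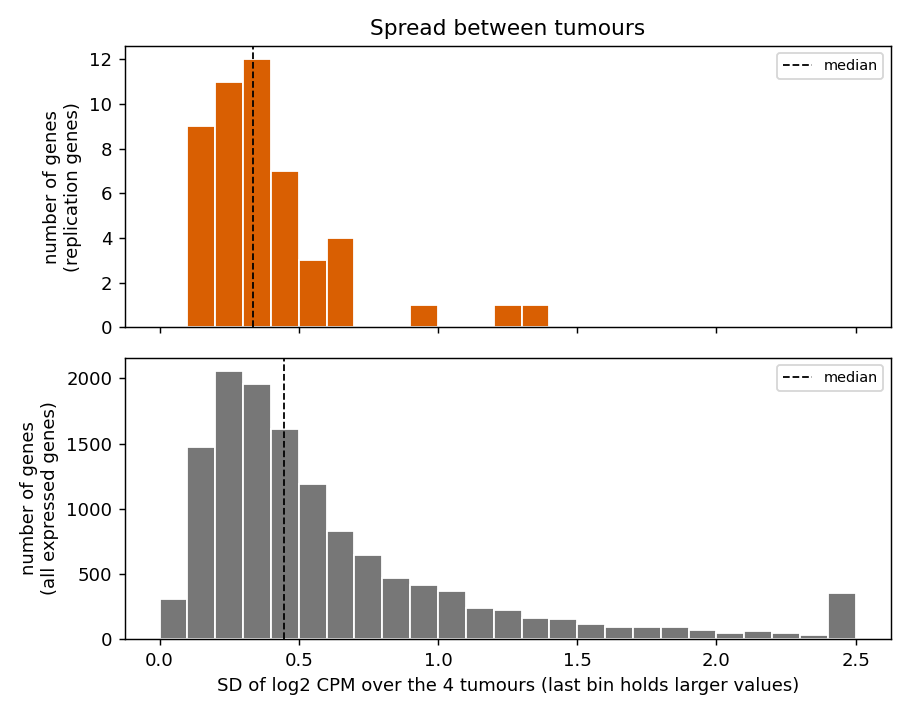
Number of genes by SD of log2 CPM over the 4 tumours, in bins of 0.1, for the 49 replication genes (top) and for all 13129 expressed genes (bottom), with dashed lines at the medians. The replication genes have a median of 0.33 and 2 genes above 1, and all expressed genes have a median of 0.45.

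Nearly all of the genes varied by more than read sampling. By a Poisson heterogeneity chi-square test adjusted over all expressed genes, 48 of the 49 varied beyond it, against 98.7% of all expressed genes, so this count is no particular feature of the set. The exception was Gins3, with an adjusted p of 0.435 by that chi-square test over the counts of the 4 libraries, which edgeR scaled. With 5% of technical variation added to the model, 46 of 49 varied beyond noise, against 94.1% of all expressed genes.

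Seen over the whole set, tumour 5 stood highest and tumour 10 lowest. Of the 49 genes, 28 were highest in tumour 5, where 21.2% of all expressed genes were. Tumours 1, 9 and 10 held the highest value of 9, 5 and 7 genes, against 21.4, 21.6 and 35.8% of all expressed genes. Tumour 10 held the lowest value of 26 genes, against 32.4% of all expressed genes, and tumour 9 that of 18, against 25.5%. Tumours 1 and 5 held the lowest value of 4 and 1 genes, against 21.8 and 20.3%. The median deviation from the 4-tumour mean was 0.08, 0.29, -0.13 and -0.26 log2 units in tumours 1, 5, 9 and 10, against -0.01, 0.00, -0.04 and 0.02 over all expressed genes. The deviations of a gene sum to 0, so a low tumour lifts the others.

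The place of tumours 5 and 10 kept its direction under total counts, and that of tumour 9 did not. By total counts alone the median deviations were 0.22, 0.33, 0.01 and -0.57, and 44 of the 49 genes were lowest in tumour 10, against 53.3% of all expressed genes under that scaling. Without tumour 9, 31 of 49 were highest in tumour 5 and 34 lowest in tumour 10, against 26.9 and 42.2% of all expressed genes. Without tumour 10, 33 were highest in tumour 5 and 33 lowest in tumour 9, against 34.3 and 41.7%.

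**Figure D3:**
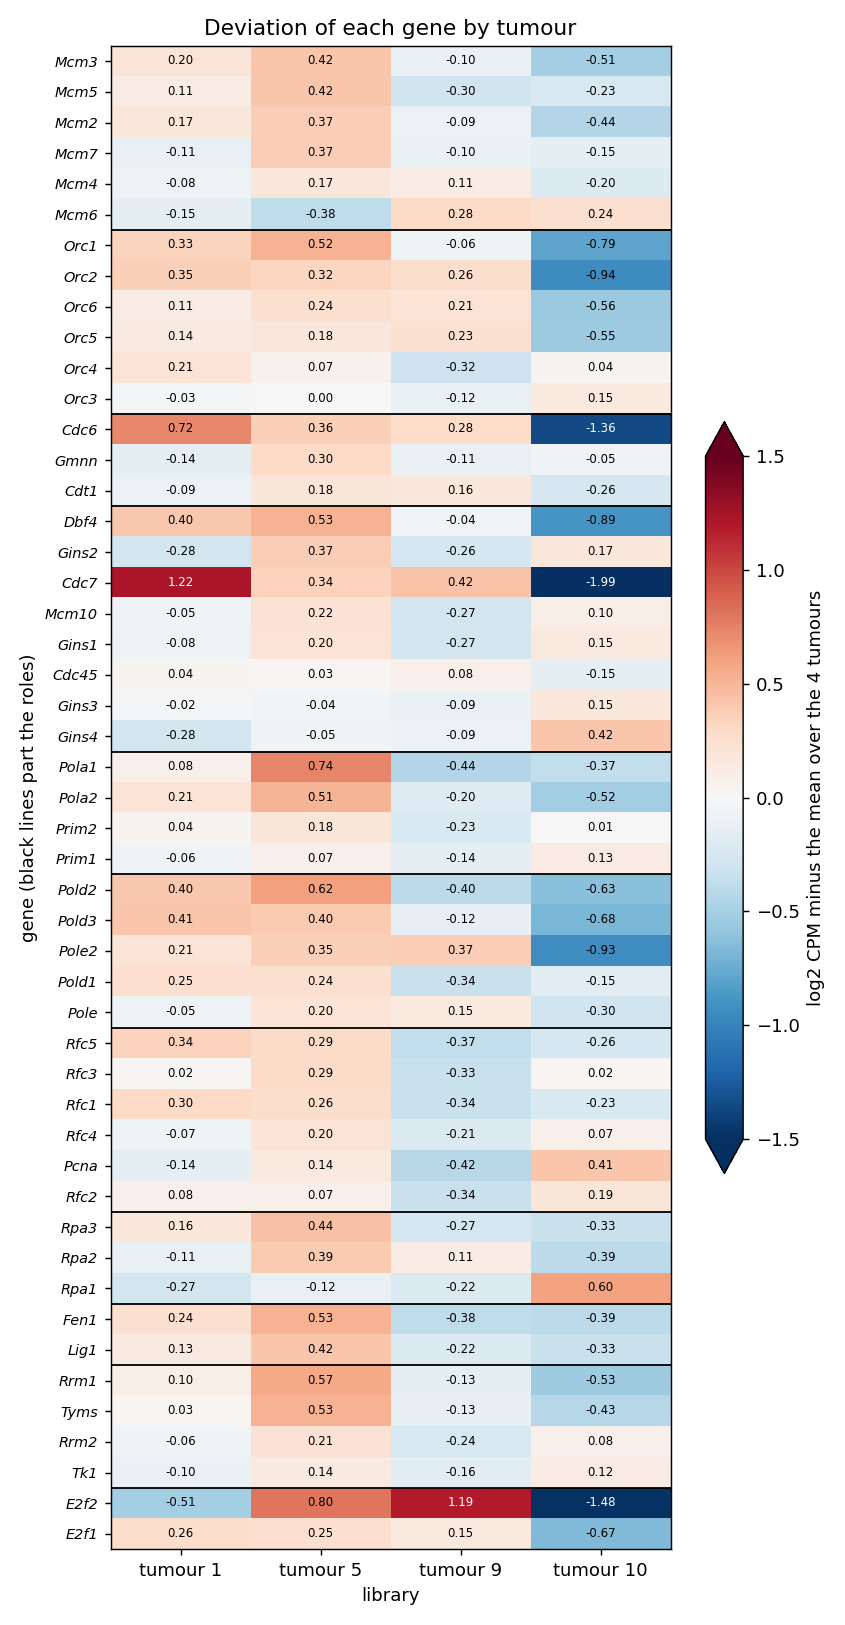
Log2 CPM of each of the 49 genes minus its mean over the 4 tumours, scaled by TMM, as a colour for each gene and tumour, with black lines between the roles. Tumour 5 is above the mean for 45 genes and tumour 10 for 17, against 6547 and 6725 of 13129 expressed genes. Mcm6 is below the mean in tumour 5, and Rpa1, Gins4 and Pcna are above it in tumour 10. By total counts tumour 10 is above the mean for 3 genes.

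Between pairs of tumours, the median differences by TMM were largest for tumour 5 against tumours 9 and 10. Of the 49 genes, 43 were higher in tumour 5 than in tumour 9, where 53.2% of all expressed genes were, with a median difference of 0.42 log2 units. Against tumour 10, 41 genes were higher in tumour 5, where 48% of all expressed genes were, with a median of 0.51. Tumour 1 was higher than tumour 5 for 13 genes (48.5% of all expressed genes), with a median of -0.22. Against tumours 9 and 10, tumour 1 was higher for 34 and 33 genes (52.6 and 48.2% of all expressed genes), with medians of 0.20 and 0.35. Between tumours 9 and 10, 27 of 49 genes were higher in tumour 9 (48.6% of all expressed genes), with a median of 0.04. By total counts these orders differed: 45 genes were higher in tumour 9 than in tumour 10 (69.5% of all expressed genes), 46 in tumour 1 and 46 in tumour 5 than in tumour 10 (67.5 and 64.2%), and 35 in tumour 5 than in tumour 9 (47.2%). These pairs share tumours and are not separate pieces of evidence.

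No gene of the set passed a test of 1 tumour against the other 3. In edgeR's two-sided quasi-likelihood test, with 1 Benjamini-Hochberg adjustment for every expressed gene in all 4 tumours, 0 of 49 were called for each of tumours 1, 5, 9 and 10, against 0% of all expressed genes in each. The smallest adjusted p of the 49 was 0.9845, 0.805, 0.9845 and 0.307 in the same test. At an unadjusted p under 0.05, the test gave 0, 0, 0 and 11 of the 49 genes, against 0.716, 0.922, 5.66 and 22.1% of all expressed genes, so the 11 genes of tumour 10 lie near the share of all genes. For tumour 10 that number was 22 by total counts and 21 without tumour 9, against 25.9 and 33.3% of all expressed genes, and 5 without tumour 1 and 5 without tumour 5, against 13.5 and 16.3%. limma-voom called 0 of the 49 for each tumour, and 0 of all expressed genes too, so that count is no particular feature of the set. A DESeq2 Wald test called 3 of the 49 for tumour 10, Orc2, Cdc6 and Cdc7, with adjusted p-values of 0.00577, 0.00276 and 0.000504, against 10.3% of all expressed genes. It called 0 for tumours 1, 5 and 9, against 0.221, 0.343 and 2.42%. The lone tumour has no replicate and is assumed to vary like the other 3.

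Of the 11 genes for tumour 10, 10 were lower there. Cdc7 differed by -2.73 log2 units (SE 0.60, edgeR adjusted p 0.321), Cdc6 by -1.83 (SE 0.41, adjusted p 0.328) and Orc2 by -1.26 (SE 0.27, adjusted p 0.307). E2f2 differed by -2.15 with an SE of 0.80. The others were Pole2 (-1.25), Dbf4 (-1.20), Pold3 (-0.93), E2f1 (-0.89), Orc6 (-0.74) and Orc5 (-0.73). Rpa1 was the 1 gene on the other side, at 0.80 log2 units (SE 0.22, edgeR adjusted p 0.434). Cdt1, Gmnn, Cdc45 and 3 of the 4 GINS genes of the same steps differed by at most 0.35 log2 units in either direction in tumour 10.

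Other genes of the pathway were described with lists that are not part of the 49. None of their genes passed the edgeR test for any tumour over all genes. Of 31 further replication factors, among them fork protection and origin firing genes, 17 were lowest and 9 highest in tumour 10, against 32.4 and 35.8% of all expressed genes. By total counts 26 were lowest and 4 highest there, against 53.3 and 20.03%. Top2a, which untangles replicated DNA, was the most abundant of them and had 92.7 CPM in tumour 10 against 328, 285 and 209 CPM in tumours 1, 5 and 9. Ticrr (treslin), an origin firing factor, had 7.08 CPM in tumour 10 against 22.1, 37.8 and 15.9 CPM. At an unadjusted p under 0.05, 9 of the 31 were lower and 2 higher in tumour 10, against 22.1% of all expressed genes in either direction.

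The list of 13 chromatin assembly genes, whose products rebuild nucleosomes and copy DNA methylation behind the fork, had median deviations of 0.16, 0.39, -0.16 and -0.40 log2 units in tumours 1, 5, 9 and 10. In that list 8 genes were highest in tumour 5 (7 by total counts), against 21.2% of all expressed genes (20.7% by total counts). In tumour 10, 11 were lowest (12 by total counts), against 32.4% (53.3% by total counts). Uhrf1, which brings the methyltransferase DNMT1 to new DNA, had 139, 154, 90.8 and 56.3 CPM. Ssrp1, a histone chaperone subunit, varied less, with 316, 319, 254 and 250.02 CPM. The 14 other genes of nucleotide supply had median deviations of -0.06, 0.04, -0.02 and 0.07. They include Samhd1, whose product breaks down deoxynucleotides, so the counts of this list give no direction for supply. In tumour 10, 7 of the 14 were highest (4 by total counts), against 35.8% of all expressed genes (20.03% by total counts). There 4 were lowest (7 by total counts), against 32.4% (53.3% by total counts). Adk, adenosine kinase, abundant in liver, had 1005 CPM in tumour 10 against 272, 304 and 308 CPM in tumours 1, 5 and 9. Nme2, a nucleoside diphosphate kinase, had 883 CPM against 436, 606 and 599.

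Of 17 E2F and RB family regulators, 10 were lowest in tumour 10 (11 by total counts), against 32.4% of all expressed genes (53.3% by total counts). Tfdp1, the partner with which E2F binds DNA, had 81.5 CPM there against 291, 240.2 and 187 CPM in tumours 1, 5 and 9. E2f7, a repressor of the family, had 11.4, 8.92, 2.83 and 4.16 CPM in tumours 1, 5, 9 and 10, lowest in tumour 9. The list of G1 and S phase cyclins, kinases and their regulators pools activators with inhibitors such as Cdkn1a and Cdkn1b. Its counts therefore give no direction for the cell cycle. Of its 16 expressed genes, 7 were lowest in tumour 10 (12 by total counts), against 32.4% of all expressed genes (53.3% by total counts). Another 7 were lowest in tumour 9 (3 by total counts), against 25.5% (14.8% by total counts). In tumour 10, 3 were highest (1 by total counts), against 35.8% (20.03% by total counts). In that list, Cdk4 had 322, 303, 241 and 160.3 CPM and Ccnd2 had 138, 173, 5.84 and 4.55 CPM in tumours 1, 5, 9 and 10. Of 14 genes of the replication checkpoint, 8 were lowest in tumour 10 by TMM and 14 by total counts, against 32.4 and 53.3% of all expressed genes. The nuclease Exo1 had 33.6, 22.8, 14.3 and 9.48 CPM, and the checkpoint clamp subunit Rad9a varied little, from 76.3 to 89.0 CPM.

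Of the 20 mitosis genes, 19 were lowest in tumour 10 (20 by total counts), against 32.4% of all expressed genes (53.3% by total counts). Of the same 20, 13 were highest in tumour 1 and 6 in tumour 5, against 21.4 and 21.2% of all expressed genes. The median deviations of the list were 0.41, 0.28, -0.05 and -0.60 log2 units in tumours 1, 5, 9 and 10. In tumour 1, 13 of the 20 were higher than in tumour 5, against 13 of the 49 replication genes and 48.5% of all expressed genes. Mki67, the antigen of cycling cells, had 299, 326, 285 and 135 CPM, and the mitotic kinase Plk1 had 122, 97.0, 75.5 and 36.5 CPM. At an unadjusted p under 0.05 in edgeR's test, 10 of the 20 were lower in tumour 10, against 22.1% of all expressed genes in either direction. By TMM all 20 were lower in tumour 10 than in tumour 9, against 27 of the 49 and 48.6% of all expressed genes. By total counts all 20 were lower there too, against 45 of the 49 and 69.5% of all expressed genes. Whether the lists differ was not tested.

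**Figure D4:**
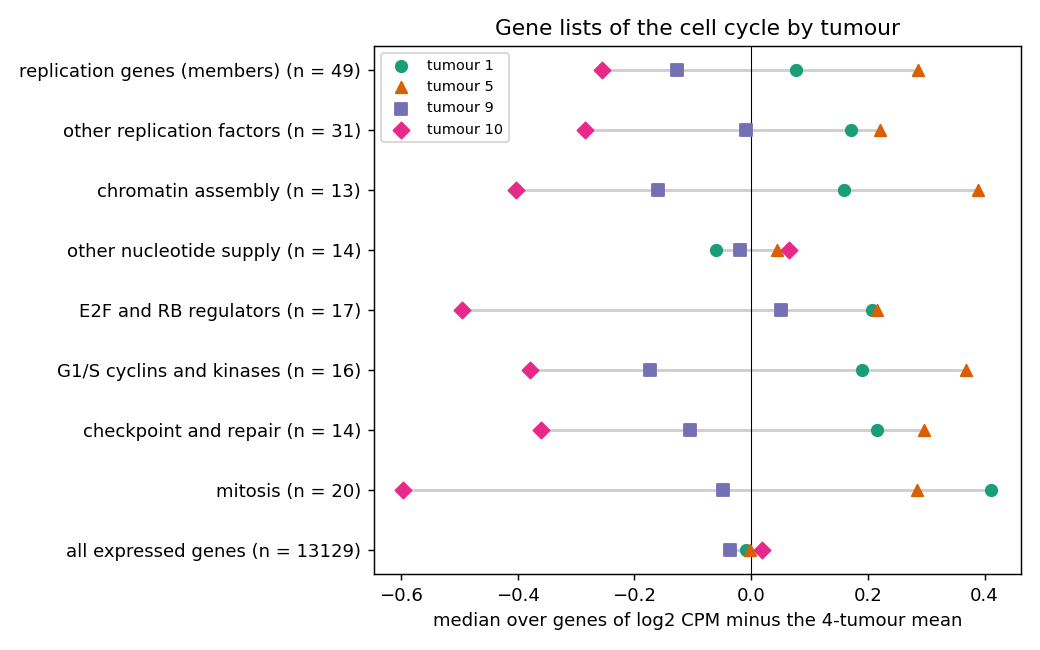
Median over genes of log2 CPM minus the 4-tumour mean for the 49 replication genes, 7 further lists of the cell cycle and all expressed genes, scaled by TMM, with 1 point for each tumour. Tumour 10 is on the left in most lists, with a median of -0.26 for the 49 genes and -0.60 for the mitosis genes, and it is not on the left for the other genes of nucleotide supply, where it lies at 0.07.

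Markers of cell types also differed between the tumours. All 10 hepatocyte markers were expressed, and 8 of the 10 were highest in tumour 10 (7 by total counts), with summed levels of 34440 CPM in tumour 10 against 11516, 12536 and 17139 CPM in tumours 1, 5 and 9. Alb had 13400 CPM in tumour 10 and 4520 to 5594 CPM in the others, and Tat had 1166 CPM against 4.60 to 41.0. All 10 neutrophil precursor markers were highest in tumour 9, with summed levels of 593 CPM there and 14.6 to 23.0 CPM elsewhere, and so were all 10 erythroid precursor markers, with 887 CPM there and 91.1 to 129 CPM elsewhere. Their part in the levels of the replication genes in tumour 9 was not tested.

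Macrophage markers were highest in tumour 9 for 8 of 10, with summed levels of 1173 CPM there against 326, 274 and 511 CPM in tumours 1, 5 and 10. Endothelial markers had 122 CPM in tumour 9 against 75.1, 81.6 and 89.1 CPM, with 6 of 6 expressed markers highest in tumour 9. All 7 fibroblast and stellate cell markers were lowest in tumour 10, with 109 CPM there against 407, 287 and 499 CPM. Cholangiocyte markers had 51.2, 79.4, 15.5 and 13.9 CPM in tumours 1, 5, 9 and 10, and oncofetal markers 30139, 39110.3, 31901 and 47841 CPM, mostly from H19. Of the 6 oncofetal markers, 3 were lowest and 2 highest in tumour 10. Their median deviations were 1.48, 1.64, -0.33 and -1.56 log2 units in tumours 1, 5, 9 and 10. T, B and NK cell markers summed to 1.68 to 4.97 CPM, with 1 of 8 at a mean of 1 CPM or more. Of all these markers, Lin28b was at 0 counts in tumour 9 and Ms4a1 in tumour 5. The part of cell makeup in the levels of the replication genes was not tested.

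Deviations also followed transcript length. In tumour 10, the 24 replication genes with transcripts shorter than 2424 bases had a median deviation of -0.02 log2 units and the 25 longer ones -0.43, against 0.19 and -0.11 for shorter and longer genes among all expressed genes. Spearman's rho between length and deviation was 0.27, 0.19, 0.19 and -0.34 over the 49 genes in tumours 1, 5, 9 and 10, against 0.23, 0.14, 0.06 and -0.27 over all 13129 expressed genes, which are not independent and share their libraries. After the median of all genes of similar length was subtracted, a step added after the data were seen, the median deviations of the 49 genes were 0.09, 0.32, -0.09 and -0.24. With that step 31 genes were highest in tumour 5 and 27 lowest in tumour 10, against 21.3 and 32.4% of all expressed genes.

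**Figure D5:**
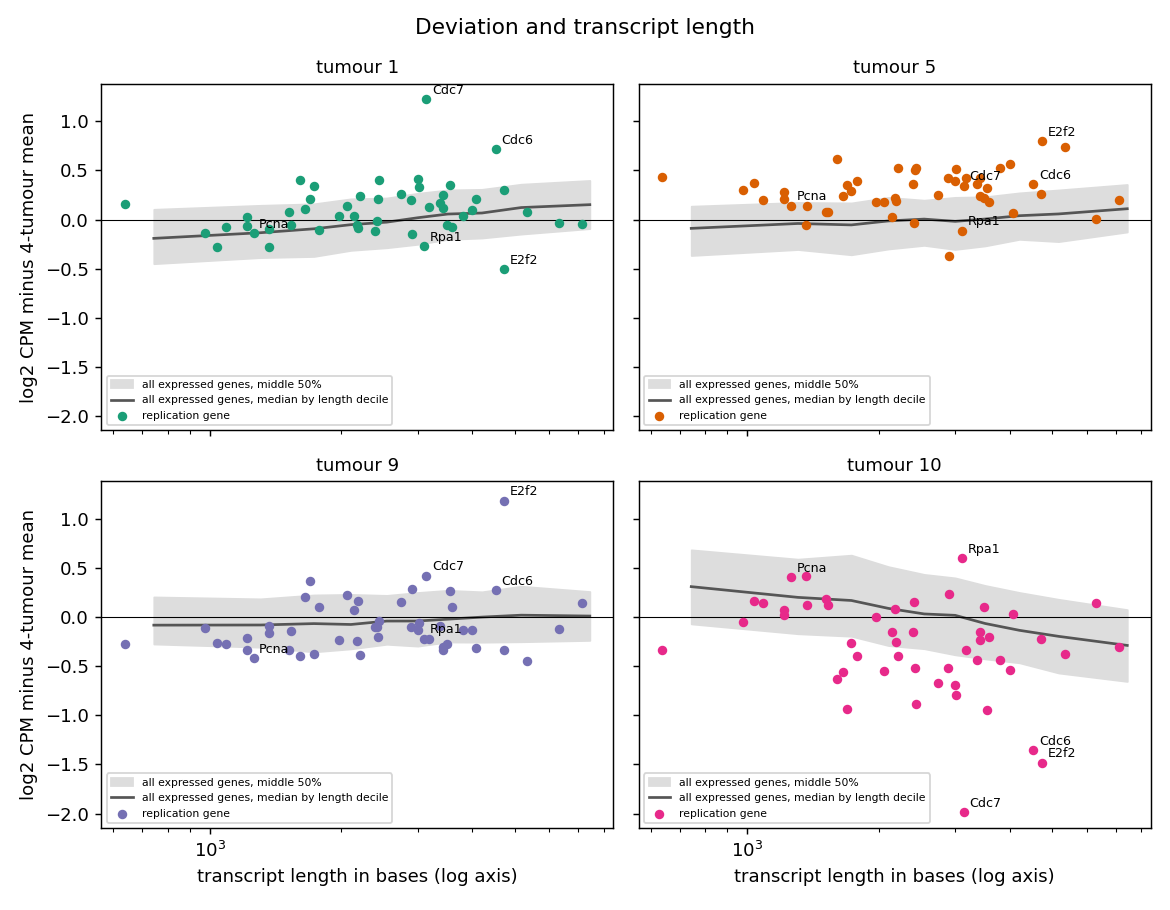
Log2 CPM (scaled by TMM) minus the 4-tumour mean against transcript length in bases (log axis), in 1 panel for each tumour, for the 49 replication genes (points) with the median of all expressed genes in each decile of length (line). In tumour 10 the line falls with length and the longer replication genes lie mostly below 0, with a median of -0.43, and in tumour 5 most points lie above 0 at all lengths.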

How the data were processed

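Poly-A RNA libraries of 4 tumours were made with the TruSeq RNA kit after Trizol extraction and DNase digestion, as the labels' protocols say. The submitters' processing notes name FastQC 0.11.8 and the build GRCm38. For the aligner, the counter and its use of strand, no name is given in the sources used here. The authors' deposited counts are whole reads per RefSeq transcript row (33984 rows a file), with reads repeated over isoforms. Transcript lengths came from the authors' FPKM values (named in the file headers), and were whole within 0.01 bases for 100% of rows with reads. The authors' TPM values (also named in the file headers) served as a check of the unit.

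Each symbol was represented by its row with the highest mean count. Of the 49 genes, 16 have more than 1 row, 12 overlap a coding gene on the opposite strand and 2 on the same strand (Cdt1 and Pole2, with predicted genes), so these counts are uncertain. Counts were scaled by TMM in edgeR 4.0.16 (R 4.3.3), with a prior count of 2 for log2 CPM and a filter of a mean of 1 CPM. The tests were the Poisson heterogeneity chi-square test and edgeR's robust quasi-likelihood test (two-sided) of each tumour against the rest, adjusted by Benjamini-Hochberg and called under 0.05. DESeq2 1.42.0 and limma-voom (limma 3.58.1) were alternatives, besides other scalings, row sums, filters, priors, a length correction and leaving out each tumour. The smallest two-sided p that exact sign flips of 4 tumours allow is 0.125. The scripts were tested on simulated data.

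The 49 genes and the 16 gene lists were chosen with earlier results of these data known. Values per tumour were given for the genes of each role that were most abundant, most variable and least variable, and for further members; of each list, the most abundant and the most variable gene could be named. Of 200 list entries, 1 was found under an older symbol. Coordinates of genes are those of GENCODE M21 on GRCm38, and promoter sequences are RefSeq's on GRCm38.p6.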

Additional observations from a re-analysis of the deposited data

Results flagged for a closer look

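Single tumours stood far from the others by TMM in 5 of the 49 genes. The gap to the nearest tumour, divided by the range over the 4, was above Dixon's 95% critical value for 4 samples. Mcm7 had 242 CPM in tumour 5, with the nearest tumour at 175 CPM. By total counts Mcm7 ranged from 136 CPM in tumour 10 to 250 in tumour 5, with 192 in tumours 1 and 9. Orc2 had 17.5 CPM in tumour 10, with the nearest at 40.4, Orc5 had 29.3 CPM with the nearest at 47.1, and E2f1 had 18.3 CPM with the nearest at 32.4. Rpa1 had 185 CPM in tumour 10, with the nearest at 112. Chance flags about 1 in 20 groups, and 12.3% of all 13129 expressed genes were flagged in the same way, so 5 of 49 lies near the share of all genes.

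Of 31 genes named from the lists, 10 were flagged, against the same 12.3%. These genes were mostly named as the most abundant or the most variable of each list, a choice that favours such flags. In tumour 10 these were Alb (13400 CPM, nearest 5594), Adk (1005, nearest 308) and Tat (1166, nearest 41.0). In tumour 9 they were Cd5l (431, nearest 93.0), S100a9 (140.04, nearest 6.78), Hbb-bs (366, nearest 82.0), Ctsg (13.9, nearest 0.327) and Vwf (10.9, nearest 3.04). Krt19 was flagged in tumour 5 (11.5 CPM, nearest 1.45) and Clec4f in tumour 1 (20.7 CPM, nearest 2.99).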

How the results depend on the processing

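Of 124 alternative values of the main results, 121 kept their direction and their side of the threshold or stayed within the spread. For median deviations the spread was the SD of the 4 values, 0.24 log2 units, which is a wide allowance. Within it, total counts moved tumour 9 from -0.13 to 0.01 and tumour 1 from 0.08 to 0.22. Other values are counts of genes called, which were 0 in the main analysis. The exceptions among the 124 were 3. By total counts alone the median deviation in tumour 10 was -0.57, against -0.26 by TMM, which follows from its scaling factor. Without tumour 10, 0 genes had an SD of at least 1. The DESeq2 Wald test called 3 genes for tumour 10 and edgeR 0; the cause was not tested. With each tumour left out in turn, the median SD ranged from 0.25 to 0.40, genes with an SD of at least 1 from 0 to 3, genes beyond counting noise from 45 to 48 (94.7 to 96.6% of all expressed genes), and calls of the 49 against the other tumours stayed at 0. Of all expressed genes, 411 were then called for tumour 10 without tumour 9, 28 for tumour 9 without tumour 10 and at most 2 in the other cases. The median deviations then ranged from 0.01 to 0.19, 0.20 to 0.33, -0.23 to -0.08 and -0.36 to -0.15 in tumours 1, 5, 9 and 10. Adjusted for tumour 10 alone, edgeR called 230 of all expressed genes and 0 of the 49. Of the values of single genes, 800 stayed within 1.5 times and 68 did not, over 11 settings. No paired analysis was possible because there is 1 group. Each of the 49 genes had at least 96 reads in every tumour.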
